A study of Mus musculus with 6 samples.

Results

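Cycling cells of the mouse spleen were picked from a CITE-seq study, in which the RNA of single cells and the counts of surface antibodies carrying DNA tags are read together. A cell barcode was kept when it held between 300 and 5000 genes and at most 10% mitochondrial UMIs (unique molecular identifiers, each standing for 1 captured RNA molecule), and a kept cell was called cycling when it held at least 2 UMIs of Mki67 and Top2a together. The rule gave 833 cycling cells among 20161 kept cells, which is 4.13% (exact 95% binomial interval 3.86 to 4.42). The mice were male C57BL/6 animals in 3 groups, young saline control mice of 3 months, aged saline control mice of 20 months and aged PF4 treated mice of 20 months that received platelet factor 4, a chemokine of platelets, at 5 ug per mL. All groups had 8 injections of 100 uL within 24 days, and the splenocytes of 5 mice were pooled before labelling, so each group was 1 library. The cells fell into 3 libraries by the suffix 1, 2 or 3 of their barcodes, and none of the sources at hand says which suffix stands for which age or treatment. The libraries are therefore named by suffix, no comparison between the groups of mice was made, and every interval covers counting error within a library only. The UMIs of Mki67 and Top2a chose these cells, so their RNA against that of other cells is a description with no test, while the antibody counts took no part in the choice.

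A dividing cell copies its DNA in S phase and separates the copies in G2 and mitosis. Copying needs the MCM helicase, the sliding clamp Pcna with its partner Pclaf, enzymes that make nucleotides such as Rrm2, and a burst of histones for the new chromatin. G2 and mitosis need topoisomerase Top2a, which untangles DNA, cyclins B with their kinase Cdk1, and kinetochore proteins and kinesins that move chromosomes, while Mki67 coats the chromosomes. In the spleen, dividing cells belong to several systems. B cells divide in germinal centres and as plasmablasts, T cells divide after meeting antigen, and the red pulp of the mouse keeps making red cells and granulocytes in adult life. Most replication histone mRNAs end in a stem loop and carry no poly(A) tail, so libraries primed on poly(A) read them only in part, and reads of near-identical histone copies can be split between genes. Histone values are for this reason mostly given as sums.

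The control regions of such genes share short motifs, and stretches for 6 genes are shown as examples of where these motifs lie. The searched motifs were the CHR element TTTGAA, the CCAAT box CCAAT, the E2F site (TTT, then CC or GG, then CGC), and the H1 box AAACACA, each on both strands. Each line holds the 150 bases before the gene start in RefSeq, on the gene's own strand and from 5′ to 3′, in build GRCm38.p6, and capitals mark the matches, none of which overlapped another. The CCAAT box is in every stretch shown, the CHR element in those of Mki67 and Top2a, the E2F site in that of Mcm5 and the H1 box in that of Hist1h1b. The positions are chr7:135716380-135716529 for Mki67 (minus strand), chr11:99024190-99024339 for Top2a (minus), chr9:70421555-70421704 for Ccnb2 (minus), chr9:65890173-65890322 for Pclaf (plus), chr8:75109359-75109508 for Mcm5 (plus) and chr13:21780626-21780775 for Hist1h1b (minus; named H1f5 in RefSeq).
Mki67: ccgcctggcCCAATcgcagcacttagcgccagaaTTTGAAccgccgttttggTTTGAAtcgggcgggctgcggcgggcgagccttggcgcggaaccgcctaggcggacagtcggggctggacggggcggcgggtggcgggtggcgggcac
Top2a: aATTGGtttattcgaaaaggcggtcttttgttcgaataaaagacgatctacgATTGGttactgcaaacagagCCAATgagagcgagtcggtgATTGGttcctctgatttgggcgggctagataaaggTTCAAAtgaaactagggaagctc
Ccnb2: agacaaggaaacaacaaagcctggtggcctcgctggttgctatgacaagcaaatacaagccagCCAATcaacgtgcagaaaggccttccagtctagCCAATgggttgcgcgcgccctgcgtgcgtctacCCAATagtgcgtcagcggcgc
Pclaf: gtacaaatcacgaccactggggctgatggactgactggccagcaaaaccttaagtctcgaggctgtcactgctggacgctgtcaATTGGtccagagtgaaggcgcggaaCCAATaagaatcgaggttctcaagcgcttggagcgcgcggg
Mcm5: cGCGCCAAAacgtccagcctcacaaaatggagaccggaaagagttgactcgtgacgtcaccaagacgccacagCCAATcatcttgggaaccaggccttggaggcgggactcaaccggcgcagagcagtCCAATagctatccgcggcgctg
Hist1h1b: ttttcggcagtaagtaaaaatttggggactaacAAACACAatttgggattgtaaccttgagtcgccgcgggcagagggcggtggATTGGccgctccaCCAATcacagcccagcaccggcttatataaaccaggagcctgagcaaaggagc

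Over the 250 bases before the start, the CCAAT box was in 33.8% of all 32851 RefSeq promoters, in 64.3% of the S phase promoters (28 of 35 genes matched), in 71.4% of the G2/M promoters (42 of 48 matched) and in 82.0% of the histone promoters (61 of 67 matched). The CHR element was in 16.0% of all promoters, in 14.3% of the S phase set, in 28.6% of the G2/M set and in 42.6% of the histone set. The E2F site was in 1.30% of all promoters, in 21.4% of the S phase set, in none of the G2/M set and in 1.64% of the histone set. The H1 box was in 6.25% of all promoters and in 14.8% of the histone promoters. These shares describe letters in a window and say nothing of which factors bind there.

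The deposited matrix held 29005 barcodes, with 6439, 10719 and 11847 in libraries 1, 2 and 3, and 24569928, 36599055 and 40949298 RNA UMIs. The kept cells numbered 4199, 7511 and 8451, with medians of 3741, 3625 and 3765 UMIs per cell. Of the barcode sequences, 68 occurred under more than 1 suffix, and 7 cycling cells carried such a sequence. Library 1 stood apart from the others in red cell RNA. Its B cells held a median of 4 haemoglobin UMIs (Hbb-bs, Hbb-bt, Hba-a1 and Hba-a2), against 0 in libraries 2 and 3. Mature neutrophils, which have left the cell cycle and were taken as cells with at least 2 UMIs of Cxcr2 and fewer than 10 of Camp and Ngp, served as a background for the rule. Of these, 6 of 213 passed the rule in library 1 (2.82%, interval 1.04 to 6.03), 0 of 142 in library 2, which allows up to 2.11%, and 1 of 204 in library 3 (0.490%). At 10 or more UMIs of the pair, 2 of the 213 mature neutrophils of library 1 remained (0.939%, interval 0.114 to 3.35). Libraries 2 and 3 then had 0. Their median depth was 2252, 2262 and 2397 UMIs, against 6855 in cycling cells.

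The cycling cells were 502 of library 1 (12.0%, interval 11.0 to 12.98), 138 of library 2 (1.84%, 1.55 to 2.17) and 193 of library 3 (2.28%, 1.98 to 2.63). Of the 502 cells of library 1, 285 passed the haemoglobin gate described below. Outside that gate the shares were 5.67%, 1.83% and 2.22%. Cycling cells were deeper than the other kept cells, with a median of 6855 UMIs against 3650 and of 1962 genes against 1590. Their mitochondrial share had a median of 2.72% against 3.77%. They held 8.52% of all UMIs of the kept cells, 20.9% in library 1, 4.33% in library 2 and 5.36% in library 3.

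The UMI level within the rule separated cells of different kinds. Of the 833 cells, 265 held exactly 2 UMIs of Mki67 and Top2a and 82 held 3, while 262 held 20 or more. Just outside the rule stood 1122 cells with 1 UMI. A sum over 150 other proliferation genes (the S phase, G2/M and histone lists without the genes of the rule) gave a median of 22.4 UMIs per 10000 in cells with 0 UMIs of the pair, 23.3 in cells with 1, 23.9 in cells with 2 and 30.7 in cells with 3. It was 136 in cells with 10 to 19 UMIs and 601 in cells with 20 or more. The cells just inside the rule thus had about the proliferation RNA of those just outside it, and were deeper, with a median of 5255 UMIs against 3615 at 0. Pclaf, a marker that the rule did not use, was seen in 1.16% of cells at 0, in 5.28% at 2, in 22.5% at 4 and in 76.3% at 20 or more. Hist1h1b, a linker histone that the rule did not use either, was seen in 10.3% of cells at 0, in 21.5% at 2 and in 95.4% at 20 or more. The lineages differed at the limit of the rule. B cells with exactly 2 UMIs had a median of 22.1 of the 150 genes per 10000 against 22.8 in B cells with 0, T cells had 29.0 against 21.3, and erythroid cells had 23.1 against 11.1.

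**Figure D1:**
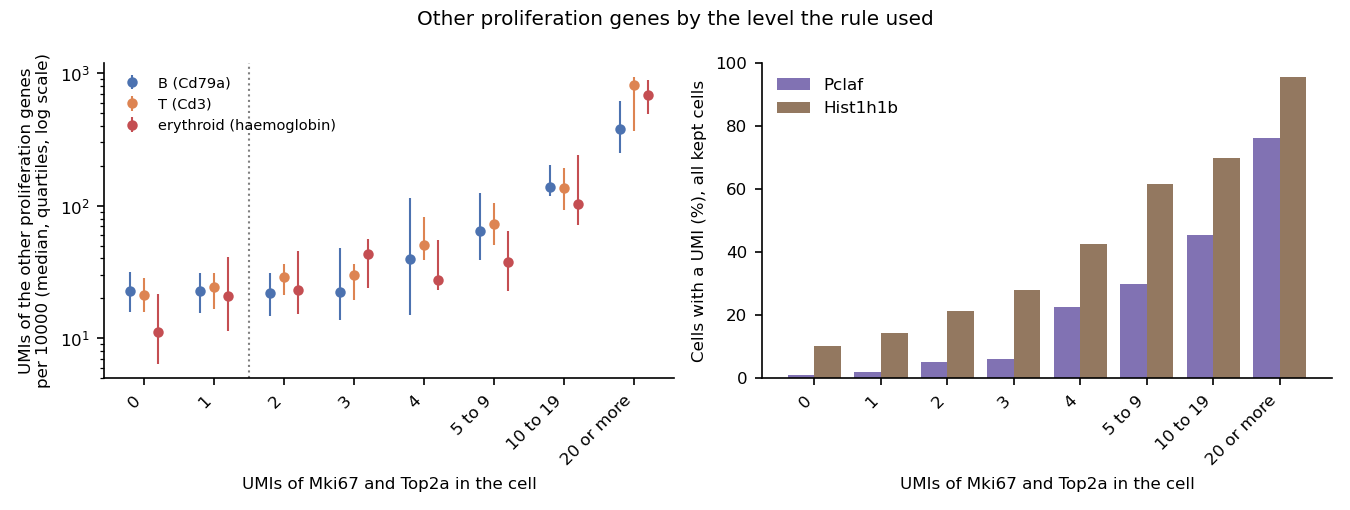
Left, UMIs of 150 other proliferation genes per 10000 UMIs of the cell (log axis; median with the lower and upper quartile) in B, T and erythroid cells by the number of Mki67 and Top2a UMIs, with a dotted line at the limit of the rule; right, the share of kept cells with Pclaf or Hist1h1b. The B cell median was 22.8 at 0 UMIs, 22.1 at 2 and 377 at 20 or more, where T cells reached 818 and erythroid cells 683.

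For this reason the cells with 10 or more UMIs, 352 in all, are given beside the whole set for shares, phases and the main lists of B and T cells, a limit set after seeing these values. They were 262 cells of library 1, 35 of library 2 and 55 of library 3. Pclaf and Hist1h1b together reached 2 UMIs in 48.9% of the 833 cells and in 89.5% of the 352. The same 2 UMIs of Pclaf and Hist1h1b were held by 888 kept cells, of which 407 were among the 833. Library 1 held 58.4% of its cycling cells above that mark, library 2 held 34.1% and library 3 held 34.7%.

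The lineage of a cell was read from 5 RNA gates. They were at least 2 UMIs of Cd79a (part of the B cell receptor), at least 2 of Cd3d, Cd3e and Cd3g (the T cell receptor complex), at least 10 of Camp and Ngp (granule proteins of immature neutrophils), at least 50 of Hbb-bs and Hba-a1 (haemoglobin), and at least 5 of Lyz2 (lysozyme of myeloid cells). Counted through each gate, cells passing several included, 278 cycling cells passed the B gate, 181 the T gate, 293 the erythroid gate, 50 the Lyz2 gate and 23 the neutrophil gate. Split so that each cell counts once, 222 were B cells only, 140 T cells only, 269 erythroid only, 22 neutrophil (Lyz2 allowed, since no cycling cell passed the Camp and Ngp gate alone), 20 Lyz2 only, 96 passed no gate and 64 passed several. The cells with 10 or more UMIs were 53 B, 31 T, 173 erythroid, 14 neutrophil, 8 Lyz2, 44 with no gate and 29 with several.

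**Figure D2:**
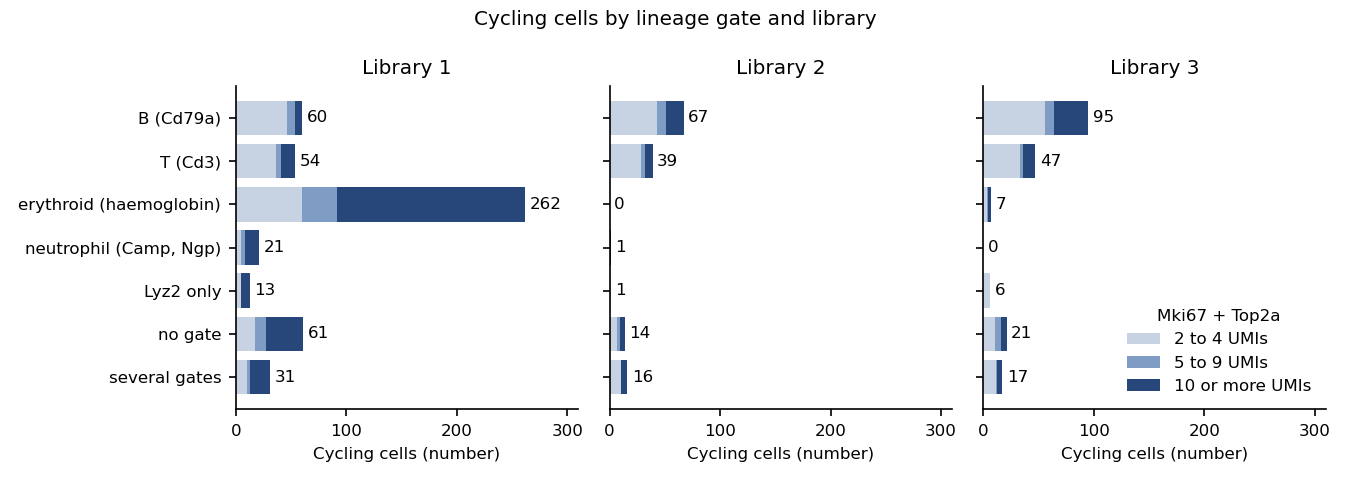
Number of cycling cells of each lineage in libraries 1, 2 and 3, for the whole rule and for cells with 10 or more UMIs of Mki67 and Top2a. Erythroid cells stand in library 1 (262 of 269), while B and T cells stand in all 3 libraries.

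Red cell precursors made up most of the set in library 1 and almost none of it elsewhere. Erythroid cells were 262 of the 502 cycling cells of library 1 (52.2%), 0 of 138 in library 2 and 7 of 193 in library 3 (3.63%). B cells were 60 (12.0%), 67 (48.6%) and 95 (49.2%), and T cells 54 (10.8%), 39 (28.3%) and 47 (24.4%). The kept cells as a whole were B cells in 43.5%, 56.5% and 52.8%, T cells in 23.4%, 25.4% and 26.3%, and erythroid cells in 8.07%, 0.173% and 0.568%. Next to these, T cells stood in the cycling set of libraries 2 and 3 at about their share of the spleen, and B cells of library 1 well below theirs.

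Within each lineage, cycling was most frequent in erythroid cells. In library 1, 262 of 339 erythroid cells were cycling (77.3%, interval 72.5 to 81.6) and 170 of them held 10 or more UMIs (50.1%). Library 2 had 0 of 13, which allows a share of up to 23.1%, and library 3 had 7 of 48 (14.6%, 6.07 to 27.8). The cells of this gate were not alike across libraries. At least 3 UMIs of a macrophage list (complement C1q genes, Vcam1 and others) were held by 10 of 77 erythroid cells of library 1 that were not cycling, by 10 of 13 in library 2 (76.9%) and by 22 of 41 in library 3 (53.7%), so the shares do not compare like cells. Immature neutrophils followed, with 21 of 125 in library 1 (16.8%, 10.7 to 24.5).

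Among lymphocytes the shares were a few percent. Cycling cells were 3.28% of the 1827 B cells of library 1 (interval 2.52 to 4.21), 1.58% of 4240 in library 2 (1.23 to 2.002) and 2.13% of 4466 in library 3 (1.72 to 2.59). T cells gave 5.49% of 984 (4.15 to 7.10), 2.05% of 1905 (1.46 to 2.79) and 2.11% of 2223 (1.56 to 2.80). The library 1 share was highest in both lineages under the 2-UMI rule, but the order of the B cell shares changed with the limit. With 10 or more UMIs, B cells gave 0.328% in library 1, 0.377% in library 2 and 0.694% in library 3, while T cells gave 1.32%, 0.367% and 0.495%, in the same order as before. The background beside these shares also differed by library. B cells below the rule carried Mki67 and Top2a at 22.7 CPM (UMIs of a gene per 1000000 UMIs of the summed cells) in library 1, 8.42 in library 2 and 13.7 in library 3, and T cells carried 20.4, 7.77 and 11.3. The share of mature neutrophils that passed, given above, was also highest in library 1. At 10 or more UMIs it was 0.939% there, from 2 cells, above the 0.328% of B cells. The higher limit was thus not free of background in library 1. The part of free RNA in these shares was not tested.

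**Figure D3:**
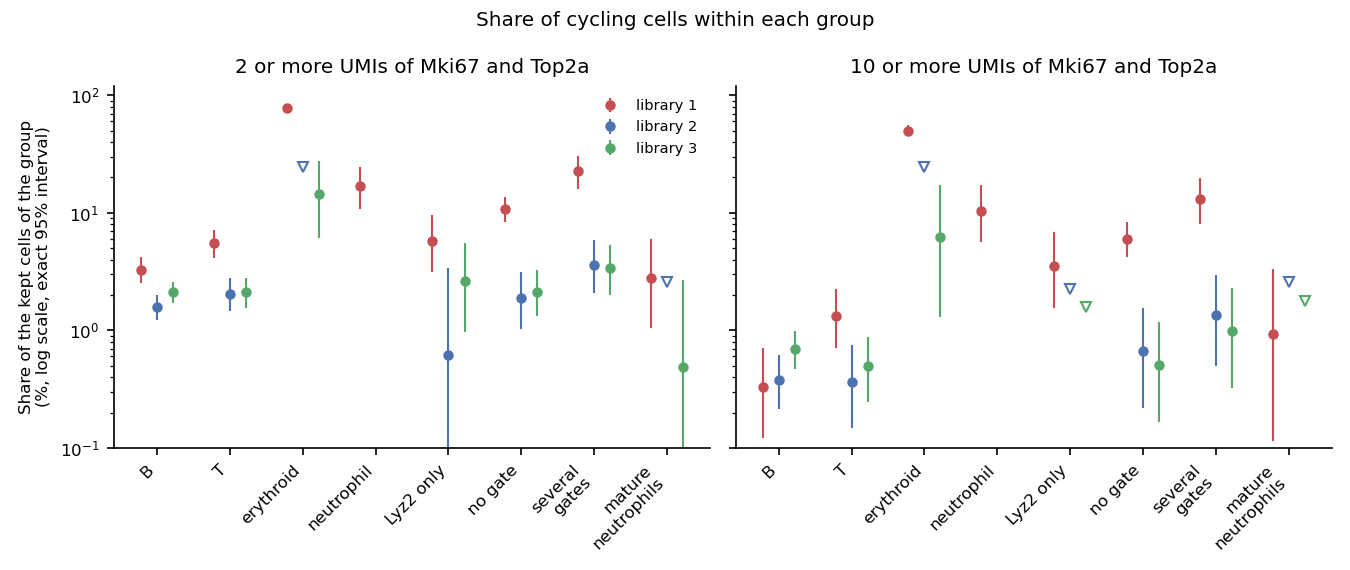
Share of cells called cycling in each lineage and library (percent, log axis, exact 95% binomial intervals), for 2 or more and for 10 or more UMIs, with mature neutrophils as the background. Open triangles mark the upper end of the exact interval at a count of 0, slightly above the limits given in the text. Groups of under 10 cells are left out. Erythroid cells of library 1 reach 77.3%, and B and T cells lie between 1.58% and 5.49% under the 2-UMI rule.

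The balance of Mki67 to Top2a differed between lineages. Mki67 gave 78.8% of the pair's UMIs in erythroid cycling cells (7625 UMIs of Mki67 and 2053 of Top2a), 63.5% in B cells with 10 or more UMIs and 54.6% in T cells with 10 or more. In B cells with 1 to 3 UMIs it was 53.0% in library 1, 45.7% in library 2 and 49.4% in library 3. In T cells with 1 to 3 UMIs it was 46.1%, 46.3% and 37.9%. Cells at the limit of the rule had a lower Mki67 share than the strongly cycling cells of their own lineage, and these shares were below that of the erythroid cells. Mature neutrophils of library 1, the background cells above, gave 69 of 92 UMIs (interval 64.9% to 83.4%). That interval treats each UMI as independent. Of the 213 cells, 30 held at least 1 UMI of the pair, 6 held 2 or more and 2 held 10 or more. The UMIs of this background thus come from few barcodes, and no comparison with the erythroid share is drawn from them.

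The phase lists gave a second description of the 352 strongly cycling cells. Summed over cells, G2/M genes stood above S phase genes in all lineages. The cells were chosen by Mki67 and Top2a, named above with G2 and mitosis, so the G2/M level is tied to the choice. The lists also differ in size, with 35 S phase, 48 G2/M and 67 histone genes. The values therefore give no share of cells in each phase. S phase genes took 7235 CPM and G2/M genes 10216 CPM in B cells, 6627 and 19319 in T cells, 7702 and 15431 in erythroid cells, 3906 and 12009 in neutrophils, 2732 and 10363 in Lyz2 cells, and 6316 and 11646 in cells of no gate. The ratio of S phase to G2/M RNA was 0.708 in B cells, 0.499 in erythroid cells and 0.343 in T cells. By library, T cells gave 5546, 6756 and 7411 CPM of S phase genes and 19303, 18558 and 19849 of G2/M genes, a narrow range in the G2/M list. B cells gave 6110, 6983 and 7521 for S phase and 12426, 12185 and 8994 for G2/M. With 6 such B cells in library 1, 16 in library 2 and 31 in library 3, these values rest on few cells.

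With the libraries pooled, replication histones were the largest of the 3 lists in every lineage except the Lyz2 cells. They took 19870 CPM in B cells, 39020 in T cells, 42108 in erythroid cells, 25115 in neutrophils and 22938 in cells of no gate. Of all RNA of the 3 lists, histones were 53.2% in B cells, 60.1% in T cells, 64.5% in erythroid cells and 61.2% in neutrophils. By library, histones took 9714, 26968 and 18257 CPM in B cells, below the G2/M list in library 1, and 30308, 49462 and 38954 CPM in T cells. The 8 Lyz2 cells took 1063 CPM of histones, 7.51% of the 3 lists, while their G2/M level was like that of B cells. Linker histones H1 gave 38.4% of histone RNA in B and in T cells, 45.1% in erythroid cells and 47.1% in neutrophils, and core histones H2A gave 31.9%, 28.4%, 22.8% and 22.9%. Of the 67 histone genes, between 58 and 62 were seen in B, T, erythroid and neutrophil cells and 32 in the Lyz2 cells.

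**Figure D4:**
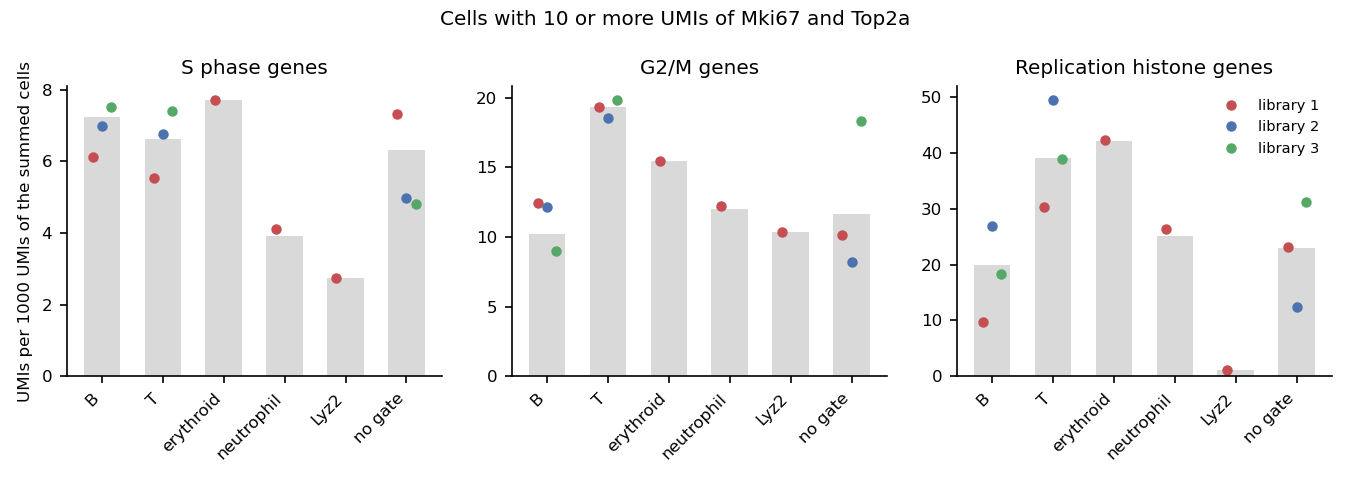
S phase, G2/M and replication histone RNA (UMIs per 1000 UMIs of the summed cells) in cells with 10 or more UMIs of Mki67 and Top2a. Bars give all libraries together and points the libraries. Histones reach 42.1 in erythroid cells and 1.06 in Lyz2 cells, while the G2/M bars lie between 10.2 and 19.3.

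Cycling B cells carried genes of the germinal centre, where B cells mutate their receptors, and of plasmablasts, and held less RNA of resting follicular cells. A gene is counted as higher or lower when it differed at least 2-fold in the same direction in each library, against a floor of 3 counts, at a mean of 20 CPM or more. Of 5933 genes, 190 were higher (3.2%) and 103 lower (1.74%), which is given as background only, since the rule used RNA of these cells. Mki67 stood at 507, 913 and 919 CPM in cycling B cells of libraries 1, 2 and 3 and at 12.1, 3.66 and 6.81 in other B cells. Top2a stood at 312, 473 and 599 CPM against 10.5, 4.76 and 6.88. Pclaf, outside the rule, stood at 230.5, 368 and 613 against 4.10, 1.86 and 4.95. For Mki67 and Top2a the rule itself set cycling above other cells, and Pclaf was higher in each library too. Library 1 was lowest in cycling cells for each of these genes. There 6 of 60 cycling B cells held 10 or more UMIs, against 16 of 67 in library 2 and 31 of 95 in library 3. Of the S phase list 23 of 29 genes tested were higher (median log2 ratio 2.45), of the G2/M list 29 of 32 (4.75) and of the histones 18 of 29 (3.10), next to a median of -0.18 over all genes tested. Hmgb2, a chromatin protein of dividing cells, had the most UMIs of the G2/M list, at 1063, 1857 and 1775 CPM against 170, 139 and 175.

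Of the germinal centre list, 7 of 8 genes tested were higher, with a median log2 ratio of 4.46. The summed list took 566, 517 and 649 CPM in cycling B cells of the 3 libraries and 75.5, 74.6 and 79.4 in other B cells. Mybl1, a MYB family factor of germinal centre cells, stood at 47.7, 61.6 and 108 CPM against 2.63, 2.48 and 2.31. Nuggc, a GTPase-like protein of germinal centre B cells, stood at 45.7, 41.0 and 60.3 CPM against 2.78, 0.897 and 2.51. Both were among the 10 genes with the largest smallest ratio over the libraries. Mef2b, a transcription factor upstream of Bcl6, stood at 83.4, 46.9 and 76.1 against 7.61, 3.04 and 2.96, and Basp1, a membrane-bound protein, at 133, 123 and 160.5 against 14.3, 8.07 and 8.61. Bcl6 itself, the factor that defines the germinal centre programme, was not higher by this measure, at 29.8, 51.3 and 49.2 CPM against 33.1, 44.7 and 49.0. The other leading genes were parts of the division machinery, the kinesins Kif4 and Kif15, the kinetochore protein Spc24, the spindle protein Aspm and the tubulin regulator Stmn1, the last at 310, 519 and 620 CPM against 24.7, 17.3 and 27.3.

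Counted per cell, at least 2 UMIs of the germinal centre list were held by 65 of 222 cycling B cells (29.3%), which was 20.0%, 31.3% and 33.7% in libraries 1, 2 and 3. Of the other B cells 449 of 10311 did so (4.35%). In cells with 10 or more UMIs of Mki67 and Top2a it was 29 of 53 (54.7%), with 50%, 56.3% and 54.8% by library. Cycling B cells were deeper, with a median of 7828 UMIs against 3265. When each cell was thinned to 2000 UMIs, the shares were 16.0% in cycling B cells, 38.5% in those with 10 or more UMIs and 1.56% in other B cells. The order of the 3 shares was the same at equal depth.

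The level of plasmablast genes was higher over the whole set than in its strongly cycling cells. Before thinning, the share of cells holding them was lower in the whole set, whose cells were shallower. After thinning to equal depth the shares were close. The list took 6278, 5838 and 8487 CPM in cycling B cells of libraries 1, 2 and 3 against 2894, 1646 and 933 in other B cells, and 5 of 9 genes tested were higher (median log2 ratio 2.01). Jchain, which joins IgM and IgA chains, stood at 3526, 3362 and 5335 CPM against 1650, 721 and 258. Among cells with 10 or more UMIs of Mki67 and Top2a the list took 1302, 2643 and 4660 CPM and Jchain 446, 1046 and 1629 CPM, which in library 1 is below the other B cells and in libraries 2 and 3 above them. Mzb1, a chaperone of antibody assembly, stood at 1546, 1216 and 1538 against 672, 449 and 334, and Xbp1, the factor of the secretory programme, at 364, 453 and 553 against 198, 152 and 114.5. The ratio was widest in library 3 for all 3 genes. At least 5 UMIs of the list were held by 61.3% of cycling and 15.5% of other B cells, and by 20.4% and 3.51% after thinning. With 10 or more UMIs of Mki67 and Top2a it was 88.7%, and 17.3% after thinning. The median depth before thinning was 7828 UMIs in cycling B cells and 16439 in those with 10 or more.

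The resting follicular list was lower in cycling B cells, with 4 of 5 genes lower and a median log2 ratio of -1.75. Fcer2a (CD23, the low affinity IgE receptor) stood at 115, 113 and 155 CPM in cycling B cells and at 371, 499 and 665 in others. Ighd, the heavy chain of IgD, stood at 360, 387 and 375 CPM against 1062, 1376 and 1498. Zfp318, which is needed for IgD transcripts, led the lower genes at 49.7, 64.5 and 76.1 CPM against 204, 271 and 328. Cd55, a complement regulator, stood at 199, 160 and 175 against 618, 707.5 and 769. Each of these genes was lower in every library. MHC class II genes, which present antigen, were not counted as lower (0 of 7), although their median log2 ratio was -0.69 and Cd74 stood at 7386, 8059 and 6514 CPM against 10936, 11429 and 10554. Genes of quiescence had a median of -0.57 with 0 of 10 counted, among them Btg1, an inhibitor of growth, at 409, 343 and 436 CPM against 770, 1016 and 1095. Of the MYC and growth list 1 of 15 was higher, and none of the 6 genes of B cell precursors reached the level needed, with Dntt, Rag1 and Rag2 at 0 UMIs in cycling B cells.

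On the surface, cycling B cells had higher median counts of CD44 and CD24. No antibody of the 34 differed 1.5-fold by its share of all antibody counts in every library (0% in each direction). Cycling B cells also held more antibody counts in total, with medians of 2771.5, 3173 and 3080 against 2098, 2126 and 2205, which stands beside each median. CD44, an adhesion molecule of activated cells, had medians of 120, 148 and 101 counts in cycling cells against 63, 59 and 57 in others. CD24, a glycoprotein high on germinal centre and immature cells, had 804, 648 and 701 against 379, 350 and 409. These were the only antibodies with medians at least 1.5 times higher in every library. The lineage antibody B220 had near equal medians (220, 267 and 265 against 225, 244 and 247), so the gated cells carried a B cell protein as well as B cell RNA.

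Cycling T cells carried the G2/M and histone genes in every library. Of 6007 genes, 244 were higher (4.06%) and 12 lower (0.2%). Mki67 stood at 896, 775 and 1027 CPM in cycling T cells of libraries 1, 2 and 3 against 10.2, 3.51 and 4.04 in other T cells, and Top2a at 679, 729 and 862 against 10.2, 4.27 and 7.28. Pclaf stood at 279, 357 and 467 against 2.17, 1.42 and 2.43. Hist1h1b stood at 1436, 3555 and 2983 CPM against 36.4, 5.50 and 11.3. Of the G2/M list 39 of 41 genes tested were higher (median log2 ratio 6.01), of the histones 33 of 33 (4.72) and of the S phase list 23 of 28 (2.39), next to 0.12 over all genes tested. Cenpf, a kinetochore protein, stood at 378, 199 and 393 CPM against 3.90, 0.663 and 0.898.

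By surface antibody, cycling T cells were of both main kinds. With at least 40 counts of CD4 or 100 of CD8a, limits set after seeing the distributions, 75 of 2289 CD4 T cells were cycling (3.28%, interval 2.59 to 4.09) and 50 of 2278 CD8a T cells (2.19%, 1.63 to 2.88). By library, the CD4 shares were 6.48%, 2.71% and 2.58% and the CD8a shares 4.61%, 1.77% and 1.31%. The CD4 share was above the CD8a share in each library under the 2-UMI rule. With 10 or more UMIs it was 1.55%, 0.407% and 0.429% for CD4 and 0.839%, 0.416% and 0.357% for CD8a, nearly equal in library 2, from 14 CD4 and 11 CD8a cells in all. Of the 140 cycling T cells, 53.6% were CD4 and 35.7% CD8a, with 4 cells of both and 11 of neither.

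Genes of regulatory and of repeatedly stimulated T cells were higher in part. Of the regulatory list 1 of 5 genes tested was higher, with a median log2 ratio of 1.06. Ikzf2, a factor of regulatory T cells, stood at 323.5, 288 and 420 CPM against 195, 180 and 142, and Ctla4, an inhibitory receptor, at 62.2, 51.9 and 66.7 against 25.8, 19.6 and 18.5. Foxp3, which defines regulatory T cells, stood at 44.8, 2.88 and 34.6 CPM against 16.9, 16.2 and 21.8, so library 2 went the other way. At least 1 UMI of Foxp3 was held by 15 of 140 cycling T cells (10.7%) and by 5.27% of others, and by 5.26% and 3.38% after thinning. Of the 31 T cells with 10 or more UMIs, 4 held it (12.9%, and 6.67% after thinning). Of the exhaustion list, receptors and factors of chronic stimulation, 2 of 3 were higher (median log2 ratio 1.66). Lag3 stood at 157, 69.1 and 17.3 CPM against 33.8, 13.7 and 5.30, and Pdcd1 (PD-1) at 69.7, 43.2 and 42.0 against 31.0, 18.1 and 8.89. At least 1 UMI of that list was held by 58.6% of cycling and 31.7% of other T cells, and by 32.3% and 18.2% after thinning. With 10 or more UMIs it was 71.0%, and 33.3% after thinning.

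The effector list had 1 of 7 genes higher, with library 1 highest in level and library 3 widest in ratio for the granzymes. Gzmk stood at 162, 112 and 121 CPM in cycling T cells against 112, 26.4 and 4.76 in others, and Gzmb at 187, 20.2 and 123.5 against 57.0, 32.8 and 7.73. Ccl5, a chemokine of memory and effector cells, stood at 10576, 3327 and 1571 against 9175, 5598 and 1039. For Ccl5 the other T cells thus ranged over the libraries more widely than cycling and other cells differed within a library. Naive T cell genes were lower in all libraries without reaching the 2-fold limit (0 of 7, median log2 ratio -0.95). Lef1, a factor of naive cells, stood at 154, 138 and 259 CPM against 290, 318 and 585, and Il7r, the receptor for interleukin 7, at 562, 337 and 284 against 818, 863 and 636. At least 2 UMIs of the naive list were held by 60.9% of cycling and 88.5% of other T cells after thinning, and by 43.3% of the T cells with 10 or more UMIs. For the effector list these shares were 54.1%, 41.2% and 63.3%. By library they were 66.0%, 59.5% and 37.0% in cycling T cells against 62.2%, 53.5% and 21.3% in others. Library 1 held 54 of the 140 cycling T cells but 930 of the 4972 others. The pooled shares therefore weigh the libraries unequally, and the difference was small in libraries 1 and 2. The 5 leading genes that were lower at least 2-fold in every library were Als2cl, Xcl1, Igfbp4, Treml2 and Pik3ip1, with smallest ratios between 2.11 and 2.31.

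Cxcr3, the chemokine receptor that has been linked to PF4, was held by cycling T cells of all libraries. It stood at 92.1, 138 and 88.9 CPM against 116, 97.3 and 34.9 in other T cells, lower in library 1 and higher in libraries 2 and 3. At least 1 UMI was found in 40.7%, 46.2% and 23.4% of cycling T cells and in 36.8%, 32.5% and 11.4% of others. After thinning to 2000 UMIs the shares were 18.0% and 11.3% over all libraries, and 16.7% in the T cells with 10 or more UMIs.

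By surface antibody, no marker of the 34 was 1.5-fold higher or lower in cycling T cells of every library, either by share (0% in each direction) or by median. Cycling T cells held more antibody counts in total, with a median of 2171 against 1711, which stands beside each median. CD44 had medians of 206, 210 and 212 counts in cycling T cells against 129, 140.5 and 47 in others, so that cycling cells were alike while the other T cells of library 3 were low. PD-1 had 7, 9 and 10 against 5, 6 and 6, and CD38 had 38, 24 and 19 against 21.5, 16 and 13. The T cell receptor beta chain had 86, 84 and 106 against 73, 80 and 93. Basophil genes stood in 3 of the 140 cycling T cells, 1 in library 1 and 2 in library 2, with Mcpt8, a basophil protease, at 122, 688 and 0 CPM against 0.650, 0.190 and 0 in other T cells, so the values of this list rest on those cells.

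Erythroid cycling cells, nearly all from library 1, carried the division programme together with genes of early red cell precursors. Of 3119 genes, 65.6% were higher and 6.41% lower in that library, with a median log2 ratio over all genes of 1.45. Haemoglobin took more of the RNA of the other cells. Hbb-bs, the adult beta globin, took 208762 CPM in cycling and 350764 CPM in other erythroid cells. Values are therefore given next to that median. The S phase list had 31 of 31 genes higher (median 4.55), the G2/M list 44 of 45 (4.54) and the histones 45 of 45 (4.99). Mki67 stood at 3721 CPM against 105, Top2a at 1004 against 11.3, Pclaf at 305 against 5.66 and Hist1h1b at 5345 against 107.5. The Mki67 level was above that of cycling B and T cells in every library.

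Part of the early erythroid genes were higher in cycling cells and part of the late ones lower. The early list had 5 of 10 genes higher, a share below the 65.6% of all genes tested. Its median log2 ratio was 1.92, and it took 10172 CPM against 5553. Gata1, the master factor of the lineage, stood at 105 CPM against 5.66, Klf1, the factor that turns on beta globin, at 274 against 17.0, and Hemgn, a nuclear protein of erythroid precursors, at 1028 against 84.9. Tfrc, the transferrin receptor through which precursors take up iron, stood at 1895 against 948, just below the 2-fold limit. Of the late list 4 of 8 genes were lower (median -0.73). Bpgm, which makes the phosphoglycerate that tunes oxygen binding, stood at 269 CPM against 1380, and Bnip3l, needed to clear mitochondria from maturing red cells, at 327.5 against 883. Slc4a1, the anion exchanger of the red cell membrane, stood at 3246 against 2566 and Alas2, the first enzyme of haem synthesis in these cells, at 1188 against 1624. Of the cyclins, kinases and E2F factors 9 of 11 were higher, while Kit, the receptor of stem and early progenitor cells, had 0.494 CPM in cycling cells and 0 in others. Lbr (957 against 5.66 CPM), Smc2 (451.5 against 8.49) and Tmpo (519 against 17.0), proteins of the nuclear envelope and of condensed chromosomes, were among the 10 leading genes outside the lists, with the tubulin Tubb5 (512 against 8.49) second after Lbr.

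Macrophage RNA stood beside these values. The macrophage list had 6 of 8 genes lower (median log2 ratio -2.37) and took 487 CPM in cycling and 1157 CPM in other erythroid cells of library 1. In the other erythroid cells of libraries 2 and 3 it took 4987 and 3233 CPM. C1qa, a complement protein of macrophages, stood at 125 CPM against 246 and Vcam1 at 74.6 against 178 in library 1. Macrophages of the red pulp engulf red cells, and their part in the values of the erythroid cells that were not cycling was not tested. By antibody, cycling erythroid cells of library 1 had medians of 1939 counts of CD24 against 1208, of 190 counts of the TER-119 antibody for red cells against 165, and of 8 counts of CD45, the leukocyte antigen, against 7. The median total of antibody counts in these cells was 2768.5 against 1972. By share, 6 of 34 antibodies were lower (17.6%) and 0 higher, the lower ones being CD45, F4/80, I-A/I-E, CD86, CD172 and CD38. In library 3 the other erythroid cells had a median of 180 counts of CD45 and 90 of F4/80, as leukocytes do.

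Ranked by the haemoglobin share of their UMIs, the 339 erythroid cells of library 1 differed in cycling. In 4 groups of 84 or 85 cells, the median haemoglobin share was 13.6%, 35.9%, 58.6% and 74.8%. Cycling cells were 82.4%, 84.5%, 91.8% and 50.6% of these groups, and cells with 10 or more UMIs 65.9%, 71.4%, 57.6% and 5.88%. The median depth of the groups was 2217, 5313, 6260 and 6729 UMIs, so these shares come from unequal depth. The lists differed in where they were low. S phase RNA stood at 11145, 7210, 1888 and 152 CPM and was lower with each step, while G2/M RNA stood at 14587, 13789, 12765 and 955 CPM and histones at 37565, 47115, 29029 and 1381. Pclaf stood at 586, 328, 94.3 and 5.11 CPM and Mki67 at 4229, 4866, 3259 and 422. Gata1 stood at 152, 114, 72.8 and 17.0 CPM. In the third group G2/M RNA was thus near the level of the group before it, while S phase RNA was far below. Haemoglobin is part of the total to which these values refer, and the macrophage list, given as a comparison, stood at 1435, 429, 200 and 172 CPM.

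**Figure D5:**
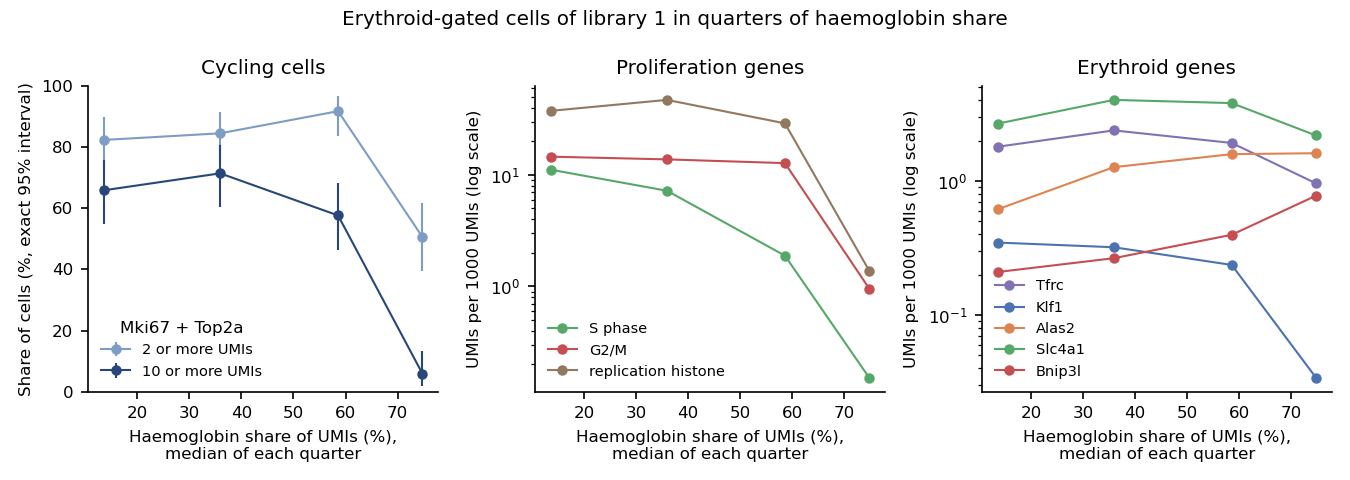
Erythroid cells of library 1 in 4 groups by haemoglobin share (x axis, median percent of UMIs). The panels show the share of cycling cells with exact 95% intervals, the UMIs per 1000 UMIs (log axis) of proliferation genes and of erythroid genes. Cells with 10 or more UMIs make up 57.6% and 5.88% of the 2 groups richest in haemoglobin.

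Cycling cells of the neutrophil group, 21 of 22 in library 1, carried genes of early granulocyte precursors. The values below are those of library 1. Of 4205 genes, 19.6% were higher and 14.7% lower. The early list, made of enzymes of the azurophil granules and their regulators, had 4 of 5 genes higher (median log2 ratio 3.87) and took 2383 CPM against 349. Elane, neutrophil elastase, stood at 814 CPM against 1.26 and Prtn3, proteinase 3, at 656 against 2.52. Ms4a3, a marker of granulocyte and monocyte progenitors, stood at 211 against 13.9. At least 2 UMIs of the early list were held by 19 of 21 cycling cells and by 43 of 104 other cells of the group, or 60.0% and 17.2% after thinning.

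The later granule genes stood apart from the early ones. Camp, the cathelicidin of secondary granules, stood at 50410 CPM against 31670, and Fcnb, a ficolin of immature cells, at 1308 against 94.4, but Ltf, lactoferrin, at 8050 against 11168. The late list had 6 of 8 genes lower (median -2.34), with Retnlg at 975 CPM against 10262, Mmp9, gelatinase, at 278 against 2184 and Cxcr2, the receptor by which neutrophils leave for the blood, at 114 against 544. The S phase (23 of 23), G2/M (40 of 40) and histone (35 of 35) genes tested were all higher, and Hist1h1b stood at 3292 CPM against 32.7. By antibody, Ly-6G, the marker of mature neutrophils, had a median of 32 counts against 173, CD11b 109 against 51 and Ly-6C 364 against 263. CD11b was the 1 antibody of 34 higher by share (2.94%), and 12 were lower (35.3%), Ly-6G among them.

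The 20 cycling cells that passed only the Lyz2 gate, 13 in library 1, 1 in library 2 and 6 in library 3, were a mixture, and no library held the 20 cells needed for a count of genes. At least 2 UMIs of the early neutrophil list were held by 10 of the 20, 9 of them in library 1, and by 17 of the other 598 cells of the group. The cycling cells were deeper, with a median of 11959.5 UMIs against 4607. After thinning, 3 of 18 cycling cells (16.7%) and 2 of 526 others (0.380%) held them. Prtn3 stood at 489 CPM against 20.9 over all libraries. Ly6c2, which marks inflammatory monocytes, stood at 1755 CPM against 513 and F13a1, the coagulation factor XIII chain of monocytes, at 1060 against 463. Apoe, which carries lipids and is high in macrophages, stood at 103 against 1660, and Ace, a protease of patrolling monocytes, at 25.8 against 289. The Ly-6C antibody had a median of 872 counts against 295 in library 1 and 813.5 against 286 in library 3. The 447 UMIs of the basophil protease Mcpt8 and the 175 UMIs of the basophil gene Cpa3 were all in library 1, where 1 cell held 2 or more UMIs of that list, so the highest ratios of the group rest on that cell. Histones were not higher in the cycling cells of this group, at 927 CPM against 1010, with Hist1h1b at 60.1 against 52.3.

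Of the 96 cycling cells that passed no gate, 61 came from library 1, and many of these carried early red cell genes below the haemoglobin limit. At least 5 UMIs of the early erythroid list were held by 44 cells, 39 of them in library 1, against 20 of the 2196 other cells outside the gates. At least 5 UMIs of the dendritic list were held by 14 cells (7, 5 and 2 by library), and at least 2 of the NK list by 11 (4, 2 and 5). The same marks were reached by 190 and 390 of the 2196 other cells. The NK share was thus lower in cycling cells (11.5% against 17.8%). No list was reached by 32 cells, 15, 4 and 13 by library. The 96 cells had a median of 1936 UMIs against 1398 in other such cells. By library the medians were 1276, 11045.5 and 3894 against 1397, 1303.5 and 1475, so the counts by library come from unequal depth. Of 6677 genes, 6.47% were higher and 6.63% lower in libraries 1 and 3, the libraries with enough cells. Slc4a1 stood at 847.5, 55.9 and 41.6 CPM in libraries 1, 2 and 3 against 30.7, 0.597 and 0.414. Late neutrophil genes were at the other end, with 7 of 7 lower and a median log2 ratio of -5.97 next to -0.12 over all genes. S100a9 stood at 164, 6.99 and 0 CPM against 12910, 6190 and 3932. The antibody medians in library 1 were 1339 counts of CD24 against 246 and 128 counts of TER-119 against 10.

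The 64 cycling cells that passed several gates made up 22.6% of the 137 such cells of library 1, 3.63% of 441 in library 2 and 3.39% of 501 in library 3. Most passed the B gate with another one, 34 with the T gate, 18 with the erythroid gate and 3 with the Lyz2 gate. Such barcodes can hold 2 cells or free RNA beside a cell, and they are kept out of the lineage values above.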

How the data were processed

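Splenocytes labelled with 34 tagged antibodies were captured with a 10x Genomics 3′ kit, and 6 samples (RNA and antibody tags of 3 libraries) were deposited as 1 matrix. The authors' deposited values are raw UMI counts per gene and antibody, made with Cell Ranger (5.0.1 per the file header), aggregated over libraries, with mm10 and Seurat named in the submitters' processing notes. Symbols shared by several gene identifiers numbered 35. The members, the gene lists and the limits were chosen with earlier results of these data known.

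Counts were read with Python 3.11.15 (numpy 2.4.6, scipy 1.17.1, pandas 2.3.3). Against doublets, barcodes over 5000 genes were left out and barcodes of several gates were kept out of the lineage values, and Scrublet (scanpy 1.11.5) was tried on each library. Sums were taken over the cells of a lineage, library and class (cycling or other) and scaled to CPM (UMIs of a gene relative to all UMIs of those cells), and a ratio used a floor of 3 counts. Gene calls used cells of exactly 1 gate (neutrophil cells may also pass the Lyz2 gate) and libraries with 20 or more cycling cells of the group. Antibody values are shares of a cell group's antibody counts, called at 1.5-fold, or medians per cell. Thinning drew 2000 UMIs per cell at random and left out shallower cells. Intervals are exact (binomial for shares, Poisson for counts) at 95% and cover counting error only. No test was made, since each group was 1 library and no source ties libraries to groups. The summing and calling steps were tested on simulated counts.

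Named genes are the 4 markers, the gate genes, up to 4 members of each list with the most counts, members that define a list, and up to 10 genes per lineage and direction with the largest smallest ratio over libraries at 50 CPM or more outside the proliferation lists. Genes of other lists named for their role (among them Foxp3, Bcl6, Klf1, Gata1, Bpgm, Bnip3l, Cxcr2 and Fcnb) were chosen after their values were seen. Alternatives changed the UMI limit, the marker genes, depth, filters, gates, fold, level and libraries. Promoter sequences came from RefSeq tables of GRCm38.p6.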

Additional observations from a re-analysis of the deposited data

Results flagged for a closer look

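The filters on barcodes removed cells that carry Mki67 and Top2a, and these stood outside every value of the report. Of the 79 barcodes with more than 5000 genes, 69 held at least 2 UMIs of the pair (87.3%, exact 95% interval 78.0 to 93.8). They were 41 of 43 in library 1, 14 of 16 in library 2 and 14 of 20 in library 3, 67 of them held 10 or more UMIs, and the median of the 79 was 36718 UMIs. That depth is far above the 2252 to 2397 UMIs of the mature neutrophils, of which 2.82%, 0% and 0.490% passed, and no share at matched depth was taken. By gate, 14 were B cells, 8 T cells, 11 erythroid, 14 Lyz2 cells, 10 passed no gate and 12 passed several. Of 7731 barcodes with over 10% mitochondrial UMIs and 300 to 5000 genes, 220 passed the rule (2.85%), 7.55% in library 1, 0.858% in library 2 and 2.30% in library 3, with a median of 1049 UMIs. Of 1034 barcodes with fewer than 300 genes, 70 passed (6.77%), 68 of them in library 1 and 68 outside all gates, with a median of 519.5 UMIs.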

How the results depend on the processing

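Under the settings used in the report, with the libraries pooled and a cell counted in each gate that it passed, the cycling share was 4.13%, the share within gates was 2.41% for B, 3.00% for T, 16.3% for neutrophil, 64.0% for erythroid and 5.47% for Lyz2, the makeup of the cycling cells was 33.4% for B, 21.7% for T, 2.76% for neutrophil, 35.2% for erythroid and 6.00% for Lyz2, the genes counted were 190 higher in B cells, 103 lower in B cells, 244 higher in T cells, 12 lower in T cells, 2045 higher in erythroid cells and 200 lower in erythroid cells, and the antibodies counted were 0 higher in B cells, 0 lower in B cells, 0 higher in T cells and 0 lower in T cells. No paired analysis was possible because each group of mice was 1 library, the replicate number 1 that all carry only names a sample, and no result came from a test. Of 228 values recomputed under an alternative, 117 stayed within the interval of the reported value, or within 1.5 times a reported count. The other 111 moved beyond it, and a change of direction was not scored. Among the values of single libraries and of neutrophil and ungated genes, 30 stayed and 33 moved. The causes were not tested.

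With at least 1 UMI of Mki67 and Top2a, the cycling share was 9.70%, the share within gates was 7.49% for B, 9.37% for T, 25.5% for neutrophil, 75.8% for erythroid and 13.9% for Lyz2, and the makeup of the cycling cells was 44.2% for B, 29.0% for T and 17.7% for erythroid. With at least 3 UMIs, the cycling share was 2.82%, the share within gates was 1.24% for B, 1.57% for T, 57.0% for erythroid and 3.83% for Lyz2, and the makeup of the cycling cells was 25.2% for B, 16.7% for T and 46.0% for erythroid. With at least 5 UMIs (chosen after seeing the data), the cycling share was 2.21%, the share within gates was 0.892% for B, 0.993% for T, 49.1% for erythroid and 3.17% for Lyz2, and the makeup of the cycling cells was 23.1% for B, 13.5% for T and 50.4% for erythroid. With at least 10 UMIs (chosen after seeing the data), the cycling share was 1.75%, the share within gates was 0.658% for B, 0.761% for T, 41.5% for erythroid and 2.74% for Lyz2, and the makeup of the cycling cells was 21.6% for B, 13.1% for T, 4.26% for neutrophil and 54.0% for erythroid. With at least 2 UMIs of Pclaf and Hist1h1b in place of the pair, the share within gates was 3.66% for B, 1.79% for T, 47.2% for erythroid and 8.97% for Lyz2, and the makeup of the cycling cells was 47.6% for B, 12.2% for T, 24.3% for erythroid and 9.23% for Lyz2. With cells thinned to 2000 UMIs, the cycling share was 2.57%, the share within gates was 1.18% for B, 1.32% for T, 54.7% for erythroid and 2.70% for Lyz2, and the makeup of the cycling cells was 26.7% for B, 18.0% for T and 52.6% for erythroid. Without the upper limit on genes, the cycling share was 4.46%, and the share within gates was 7.17% for Lyz2. Without the mitochondrial limit, the cycling share was 3.78%, and the makeup of the cycling cells was 28.1% for erythroid. Outside the erythroid gate (chosen after seeing the data), the cycling share was 2.74%. With barcodes of exactly 1 gate, the share within gates was 2.11% for B and 3.24% for Lyz2, and the makeup of the cycling cells was 26.7% for B, 16.8% for T, 0% for neutrophil and 2.40% for Lyz2. With a fold of 1.5, the genes counted were 378 higher in B cells, 523 lower in B cells, 446 higher in T cells, 103 lower in T cells and 323 lower in erythroid cells. With a mean of at least 5 CPM, the genes counted were 377 higher in B cells, 521 higher in T cells and 818 lower in erythroid cells. With a mean of at least 100 CPM, the genes counted were 41 higher in B cells, 29 lower in B cells, 62 higher in T cells, 0 lower in T cells, 402 higher in erythroid cells and 54 lower in erythroid cells. With means over cells of counts per 10000 UMIs, the genes counted were 29 lower in B cells. With barcodes of each gate whatever else they pass, the genes counted were 552 lower in erythroid cells. With cells of 10 or more UMIs as the cycling cells (chosen after seeing the data), the genes counted were 670 higher in B cells and 918 lower in B cells, but only library 3 then held 20 such cells, so the call rests on 1 library in place of 3 as well as on another limit. With medians in place of shares, the antibodies counted were 2 higher in B cells. Leaving out each library in turn, the cycling share was 2.07 to 5.49%, the share within gates was 2.02 to 2.83% for B, 2.37 to 3.47% for T, 15.7 to 50% for neutrophil, 9.64 to 72.04% for erythroid and 1.93 to 7.04% for Lyz2, the makeup of the cycling cells was 26.1 to 58.6% for B, 18.3 to 35.6% for T, 0.302 to 3.59% for neutrophil, 2.42 to 44.7% for erythroid and 3.02 to 6.76% for Lyz2, the genes counted were 189 to 311 higher in B cells, 125 to 247 lower in B cells and 26 to 48 lower in T cells, and the antibodies counted were 0 to 1 higher in B cells, 0 to 1 higher in T cells and 0 to 1 lower in T cells. The lowest shares of all kept cells, of B, T and erythroid cells and of Lyz2 cells came without library 1, as did the lowest erythroid, neutrophil and Lyz2 parts of the makeup. The neutrophil share without library 1 rests on 2 cells.

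Scrublet marked 5 of 5844, 1 of 10441 and 282 of 11686 barcodes in libraries 1, 2 and 3, under 0.5% in the first and second, where it cannot be taken to have worked, and 5 marked barcodes were cycling cells. Counts of genes could not be recomputed for T and neutrophil cells with 10 or more UMIs, nor for erythroid and neutrophil cells without library 1, since no library then held 20 such cells. Of the 833 cells, 265 had exactly 2 UMIs of Mki67 and Top2a, and with 1 library per group the spread between mice is not known.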

Other observations

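The cells that passed several gates differed in histone RNA by library. Among those with 10 or more UMIs of Mki67 and Top2a, replication histones took 59.9% of the RNA of the phase lists in the 18 cells of library 1, 13.1% in the 6 cells of library 2 and 40.4% in the 5 cells of library 3. G2/M genes took 13246, 14849 and 9476 CPM in the same cells, and S phase genes 5808, 3894 and 4172 CPM. Hmox1, the haem-degrading enzyme of red pulp macrophages, stood at 140, 383 and 0 CPM in the cycling cells of several gates in libraries 1, 2 and 3, and Slc40a1, the iron exporter of the same macrophages, at 77.8, 301.5 and 19.2 CPM. Jchain stood at 604, 61.3 and 5704 CPM in these cells.

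Of the 10 interferon genes, 5 were tested in T cells and 0 were higher or lower (4.06% and 0.2% over all genes), with a median log2 ratio of 0.44 next to 0.12 over all genes tested. Ifi27l2a, the member with the most UMIs, stood at 960.5, 942 and 901 CPM in cycling T cells and at 403, 251 and 459 CPM in other T cells. In cycling B cells Ccnd2, a D-type cyclin that drives entry into the cycle, stood at 224.5, 350 and 128 CPM against 102, 68.8 and 96.0 CPM. In T cells it stood at 316, 435 and 412 CPM against 455, 519 and 550 CPM, so that it was higher in cycling B cells of every library and lower in cycling T cells of every library.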
